A study of Mus musculus with 20 samples.

Results

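Both arms of miR-126a, miR-143-3p and both arms of miR-145a were followed through mouse serum, 5 of the 1915 mature miRNA names in the deposited count table. They were chosen by name, as the miRNAs best known from the vessel wall, with miR-126a standing for endothelium and miR-143 with miR-145a for smooth muscle. Each had 1 row in the table, no other name carried the same counts in every library, and all 5 passed the filter on low counts that left 360 miRNAs for testing. The series asks how genotype and age act together on small RNAs of the blood in the long-lived Ames dwarf mouse.

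The 4 groups were old dwarf, old normal, young dwarf and young normal female mice, with 5 serum libraries each. Old mice were 21 to 22 months of age and young mice 5 to 6 months. All samples, normal ones included, carry the strain label "Ames dwarf (heterogeneous genetic background)", and the labels name no allele. By common knowledge of the strain, Ames dwarfs lack growth hormone, prolactin and thyroid-stimulating hormone. RNA was isolated with a miRNeasy kit and sequenced from TruSeq small RNA libraries. The labels do not say that each library is a separate mouse, so p-values measure the spread between these libraries, which may be technical in part. In serum, fewer releasing cells and less RNA released per cell cannot be told apart.

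miR-126 is made from within Egfl7, a gene of endothelial cells, and its 3p strand keeps vessels intact by damping inhibitors of VEGF signalling such as Spred1, while the 5p strand has been tied to endothelial renewal. Platelets and their precursors carry miR-126 as well. miR-143 and miR-145 are cut from a shared transcript that serum response factor and myocardin switch on, and they hold smooth muscle cells in their contractile state, with Elk1 and Klf4 among their targets. Fibroblasts and other stromal cells also express them. All of these miRNAs are found cell-free in blood, in vesicles or bound to protein.

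The miR-126a strands are printed because both were abundant in serum and are compared as a pair further on. Capitals mark the seed (bases 2 to 8) of each mature strand, and in the hairpin they mark the positions of both strands.
miR-126a-5p: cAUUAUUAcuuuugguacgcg
miR-126a-3p: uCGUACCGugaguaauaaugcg
Mir126a hairpin: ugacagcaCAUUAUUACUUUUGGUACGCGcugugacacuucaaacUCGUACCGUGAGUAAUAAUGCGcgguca
The hairpin and the 3p strand are RefSeq sequences (GRCm38.p6), and the 5p strand is the consensus in the authors' deposited miRDeep2 report, found at 1 place in that hairpin. The hairpin covers chr2:26591357-26591429 on the plus strand of GRCm38, with the 5p strand at chr2:26591365-26591385 and the 3p strand at chr2:26591402-26591423. In GENCODE M21 it lies inside Egfl7 (chr2:26580014-26593120), in an intron of 8 and an exon of 1 of its 19 transcripts, and it also overlaps the gene model Gm20532. Among the 1679 mature names in the RefSeq table, which has no entry for miR-126a-5p, no other name shares either seed. That table holds fewer names than the 1915 of the count table. On the minus strand, Mir126b overlaps the hairpin over 58 bases, and both of its strands were listed at 0 of 48692970 reads over the 20 libraries, which allows up to 0.0616 per 1000000 reads, for counting error only.

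Mir143 (chr18:61649196-61649258) and Mir145a (chr18:61647825-61647894) lie on the minus strand of GRCm38 with 1301 bases between them, and neither lies inside another GENCODE M21 gene. The long noncoding RNA Carmn, known as a host transcript of the pair in smooth muscle, is annotated on the same strand at chr18:61649625-61665537, and its end lies 366 bases before Mir143. A paralog, Mir145b, sits elsewhere on the chromosome (chr18:69022199-69022273) and gave 15 reads over all libraries.

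Libraries held 1343137 to 4710263 miRNA reads, counting each name once. The ranges of the groups overlapped, at 1343137 to 3597213 reads in old dwarf, 1429972 to 3736000 in old normal, 1789627 to 2336128 in young dwarf and 1653992 to 4710263 in young normal libraries. The 5 miRNAs together took 0.161% to 1.38% of a library. mmu-miR-143-3p was the most abundant of them with 141172 reads over all libraries, followed by mmu-miR-126a-5p with 97265, mmu-miR-126a-3p with 12655, mmu-miR-145a-5p with 1666 and mmu-miR-145a-3p with 906. By reads they stood at ranks 28, 34, 91, 179 and 213 of all names, in the same order.

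The strands of a hairpin contributed unequally. In the authors' deposited report on all samples together, the miR-126a hairpin drew 97265 reads on the 5p arm, 12652 on the 3p arm and 0 on the loop. The miR-143 hairpin drew 141028 reads on its 3p arm and 15 on its 5p arm. The miR-145a hairpin was the most even, with 1658 reads on the 5p arm and 903 on the 3p arm. Thus miR-126a-5p, and not miR-126a-3p, was the endothelial strand with more serum reads. Read numbers of different miRNAs also carry the ligation preference of the library kit, whose part was not tested.

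miR-143-3p, which targets Elk1 in smooth muscle cells, was 2.54-fold as abundant in serum of old dwarf mice as in that of old normal mice, a higher level, and was the one vascular miRNA to pass the test in any comparison. Levels are CPM, counts per 1000000 of the TMM-scaled library. The old dwarf libraries held 4446, 1577, 1833, 4740.1 and 4464 CPM. The old normal libraries held 501, 1037, 804, 1966 and 2407 CPM. Of the old dwarf libraries, 3 of 5 lay close together above every old normal library, and the other 2 fell within the old normal range. In 21 of 25 pairs the old dwarf library was the higher one.

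The mean of miR-143-3p was 3412 ± 1565 CPM in old dwarf libraries, and 1343 ± 808 CPM in old normal libraries (SD, n = 5 each). The log2 fold change was 1.34 ± 0.46 (SE; 95% interval 0.39 to 2.30), with an adjusted p of 0.0381 by the quasi-likelihood test of edgeR with Benjamini-Hochberg adjustment over 360 miRNAs. That makes 1 of the 5 vascular miRNAs called at an adjusted p under 0.05, beside 26.4% of all miRNAs tested in this comparison (16.1% higher and 10.3% lower), so the count is near the background. The call did not survive leaving out any of 7 libraries. Without old dwarf replicate 1, 4 or 5 the adjusted p was 0.0838, 0.108 and 0.0982. Without old normal replicate 1, 2 or 3 it was 0.0802, 0.0846 and 0.0819, and without young dwarf replicate 2 it was 0.0533. The fold change itself stayed between 1.14 and 1.67 on the log2 scale over all 20 such fits.

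The haemolysis index also differed between these groups. This index, the log2 ratio of red-cell miR-451a to miR-23a-3p as reference, averaged 5.38 ± 0.44 in old dwarf and 4.30 ± 0.70 in old normal libraries (SD, n = 5 each). It averaged 5.40 ± 0.43 in young dwarf and 5.45 ± 0.61 in young normal libraries, so old normal serum stood low. The reference was not level between the old groups. Old normal libraries held 883 ± 99.9 CPM of miR-23a-3p, against 725 ± 84.3 CPM for old dwarf libraries (SD, n = 5 each). The part of miR-23a-3p in the index difference was not tested. miR-486a-5p, the most abundant red cell miRNA here, ran opposite to the index. It averaged 313632 ± 112671 CPM in old dwarf libraries, and 392032 ± 62999 CPM in old normal libraries (SD, n = 5 each; log2 fold change -0.32 ± 0.30, edgeR adjusted p = 0.417). The other 4 listed red cell miRNAs went the way of the index. Their log2 fold changes were 0.73 ± 0.28 for miR-451a, which is part of the index, and 0.63 ± 0.27 for miR-144-5p. miR-144-3p stood at 0.57 ± 0.26 and miR-16-5p at 0.48 ± 0.21. DESeq2 called these 4, beside 136 of all 360 miRNAs, and edgeR called none of them, beside 95 of 360. With the index as a covariate the fold change of miR-143-3p was 0.91 ± 0.63 (adjusted p = 0.473), in a fit that called 0 of 360 miRNAs in this comparison, with 66 at an unadjusted p under 0.05. Over the 20 libraries miR-143-3p and the index had Pearson's r of 0.544 (permutation p = 0.0128, adjusted over 5 miRNAs 0.064) and Spearman's rho of 0.635 (adjusted p = 0.016). Leaving out the 2 libraries farthest from the median gave r = 0.535. After each group was centred on its mean, r was 0.206 (adjusted permutation p = 0.525), so within groups no relation was detected.

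**Figure D1:**
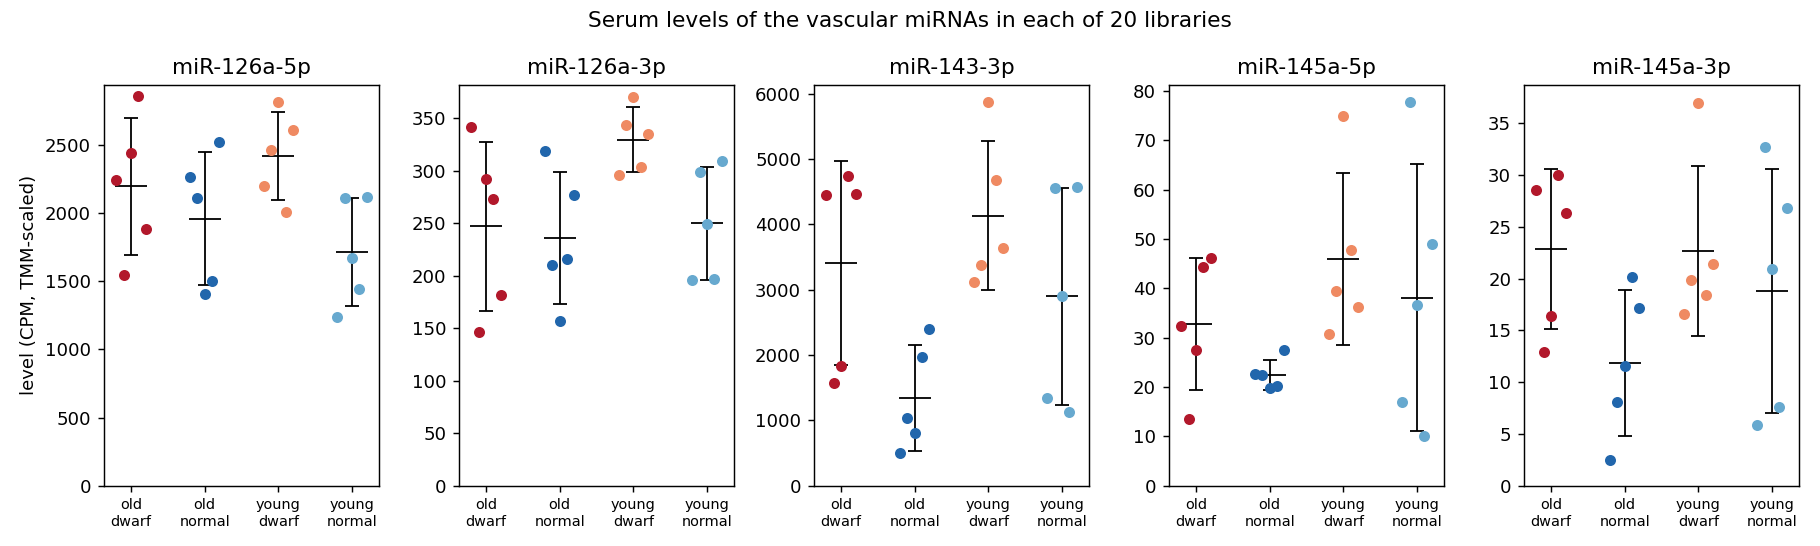
Serum level of each vascular miRNA in CPM (linear axes from 0) in old dwarf, old normal, young dwarf and young normal mice, with a point per library and bars for mean ± SD (n = 5). miR-143-3p spans 501 to 5866 CPM with old normal replicates 1, 2 and 3 at the bottom, while miR-126a-5p spans 1237 to 2858 CPM with all 4 groups overlapping.

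The miR-145a strands, whose 5p strand represses Klf4 and Klf5 in smooth muscle cells, lay at far lower levels, and neither passed the test. miR-145a-3p held 28.5, 12.9, 16.3, 30.02 and 26.3 CPM in old dwarf libraries and 2.51, 8.06, 11.5, 20.2 and 17.2 CPM in old normal libraries. Again 3 of 5 old dwarf libraries exceeded all old normal ones. The log2 fold change was 0.92 ± 0.49 (95% interval -0.10 to 1.95; edgeR adjusted p = 0.149), with only 5 reads in the lowest old normal library. miR-145a-5p ran from 13.6 to 46.2 CPM in old dwarf libraries, and from 19.9 to 27.5 CPM in old normal libraries, the tightest group of this miRNA. Here 4 of 5 old dwarf libraries exceeded all old normal ones, and old dwarf replicate 2 lay below them all. The old dwarf library was higher in 20 of 25 pairs. The log2 fold change of miR-145a-5p was 0.54 ± 0.44 (95% interval -0.37 to 1.45; edgeR adjusted p = 0.350).

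The endothelial strands showed no detectable difference between old dwarf and old normal serum. miR-126a-5p held 2241, 1549, 2442, 2858 and 1885 CPM in old dwarf libraries and 2261, 2108, 1404, 1498 and 2517 CPM in old normal libraries. The values interleave. The log2 fold change was 0.16 ± 0.21 (95% interval -0.28 to 0.61; edgeR adjusted p = 0.567). miR-126a-3p held 342, 147, 292, 273 and 181 CPM in old dwarf libraries and 319, 210.5, 157, 216 and 277 CPM in old normal libraries. The old dwarf library was higher in 13 of 25 pairs, and the log2 fold change was 0.07 ± 0.24 (95% interval -0.44 to 0.57; edgeR adjusted p = 0.837). A change of miR-126a-3p beyond 1.48-fold upward or below 0.74-fold lies outside that interval.

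**Figure D2:**
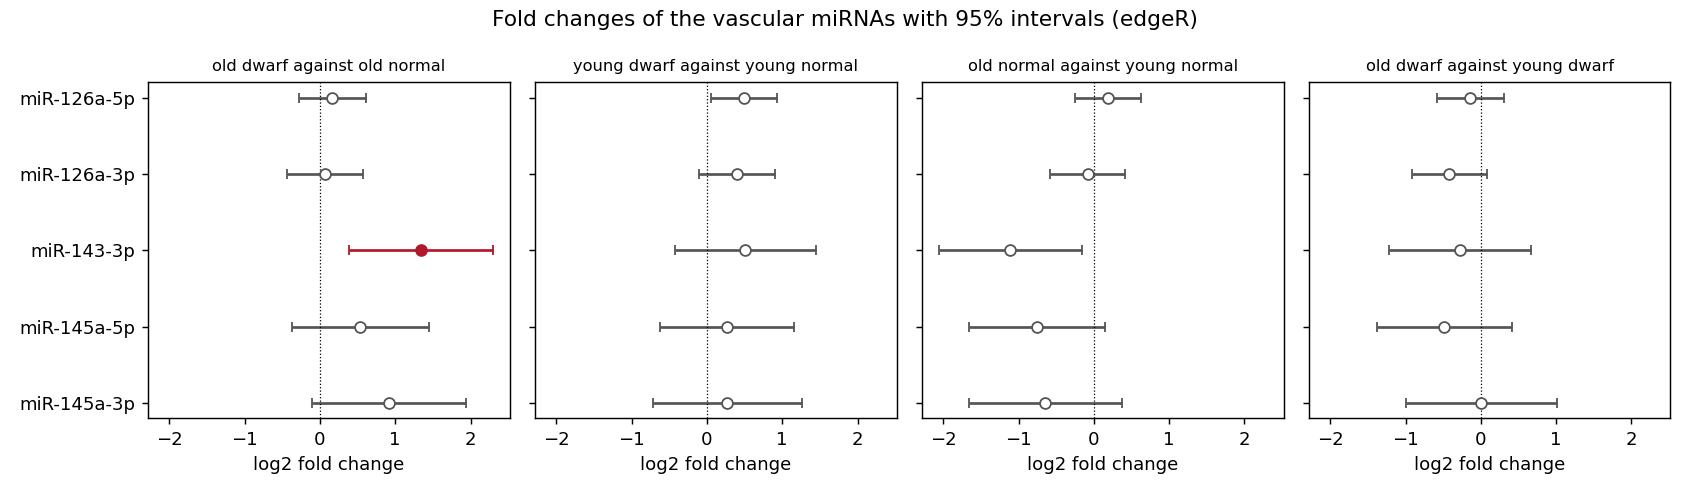
Log2 fold change of each vascular miRNA (points) with its 95% interval from the edgeR fit (bars) in 4 comparisons, with a filled red point where the adjusted p is under 0.05. The sole filled point is miR-143-3p in old dwarf versus old normal mice at 1.34, and the intervals of miR-143-3p in old normal versus young normal mice (-2.06 to -0.16) and of miR-126a-5p in young dwarf versus young normal mice (0.05 to 0.94) also leave out 0.

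In young mice no vascular miRNA was called between genotypes, and neither was any of the 360 miRNAs by edgeR (0% called), with 28 at an unadjusted p under 0.05 and 6 called by DESeq2, none of them vascular. miR-126a-5p came nearest. It held 2201, 2462, 2809.9, 2007 and 2608 CPM in young dwarf libraries and 1237, 2113, 1666, 1445 and 2119 CPM in young normal libraries. In 23 of 25 pairs the young dwarf library was higher, with a log2 fold change of 0.49 ± 0.21 (95% interval 0.05 to 0.94; unadjusted p = 0.0306, edgeR adjusted p = 0.460).

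miR-126a-3p, from the same hairpin, held 296, 344, 371, 303 and 335 CPM in young dwarf libraries and 196, 298.5, 249.7, 197 and 309.6 CPM in young normal libraries. The young dwarf group was the tightest of all, at 329.8 ± 30.6 CPM, against 250.1 ± 53.9 CPM in young normal libraries (SD, n = 5 each). The log2 fold change of 0.40 ± 0.24 had an edgeR adjusted p of 0.641. miR-143-3p held 3120.3, 3371, 5866, 4678 and 3642 CPM in young dwarf libraries and 1346, 4552, 2902, 1123 and 4568 CPM in young normal libraries. Young normal mice split widely, with 2 libraries within the young dwarf range and 3 below every young dwarf library, and the log2 fold change was 0.51 ± 0.45 (95% interval -0.43 to 1.45; edgeR adjusted p = 0.733). The miR-145a strands had log2 fold changes of 0.27 ± 0.43 for 5p and 0.27 ± 0.48 for 3p (edgeR adjusted p = 0.880 and 0.900).

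With age in normal mice, miR-143-3p was lower without passing the test. Old normal libraries averaged 1343 ± 808 CPM and young normal libraries 2898 ± 1665 CPM (SD, n = 5 each), and the old normal library was higher in 4 of 25 pairs. The log2 fold change was -1.11 ± 0.46 (95% interval -2.06 to -0.16; edgeR adjusted p = 0.0840), so 0 of the 5 vascular miRNAs were called beside 15.6% of all miRNAs. miR-143-3p alone of the 5 had an unadjusted p under 0.05. DESeq2 called it (-1.24, adjusted p = 0.0368), as did the edgeR fit on library totals (-1.70, 0.0396) and that with no filter on low counts (-1.23, 0.0406). So did the fits without old normal replicate 5, young normal replicate 1 or young normal replicate 4, at adjusted p = 0.0492, 0.0390 and 0.0433. The edgeR fit with the haemolysis index as covariate did not call it, and called 1 of 360 miRNAs in this comparison, a higher one. The index averaged 4.30 ± 0.70 in old normal and 5.45 ± 0.61 in young normal libraries (SD, n = 5 each). This comparison shares the old normal libraries with the comparison of old dwarf and old normal mice, so the same 5 libraries enter both.

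The other vascular miRNAs did not change detectably with age in normal mice. The miR-145a strands had log2 fold changes of -0.76 ± 0.43 for 5p and -0.64 ± 0.49 for 3p (edgeR adjusted p = 0.195 and 0.321). miR-126a-5p was at 0.19 ± 0.21 (95% interval -0.25 to 0.63; edgeR adjusted p = 0.500), a sign that turned to -0.34 on library totals, where the median of all miRNAs was itself -0.42. miR-126a-3p was at -0.08 ± 0.24 (95% interval -0.58 to 0.42; edgeR adjusted p = 0.817), which turned to 0.04 with upper-quartile scaling.

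In dwarf mice, age moved none of them past the test, beside 0.556% of all miRNAs called by edgeR; each adjusted p was 0.997 or higher, and 0 of 5 had an unadjusted p under 0.05. DESeq2 called 2 miRNAs as well, none of them vascular. miR-143-3p averaged 3412 ± 1565 CPM in old dwarf libraries, and 4135 ± 1134 CPM in young dwarf libraries (SD, n = 5 each), a log2 fold change of -0.28 ± 0.45 (95% interval -1.22 to 0.66). miR-126a-3p averaged 247.1 ± 80.7 CPM in old dwarf libraries, and 329.8 ± 30.6 CPM in young dwarf libraries, with a log2 fold change of -0.42 ± 0.24 (95% interval -0.92 to 0.08). The remaining log2 fold changes were -0.14 ± 0.21 for miR-126a-5p, -0.49 ± 0.43 for miR-145a-5p and 0.0047 ± 0.48 for miR-145a-3p.

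Whether age acts differently in the genotypes was tested as the difference of the age effects, dwarf minus normal, which calls 0.556% of all miRNAs and none of the vascular ones. For miR-143-3p the difference was 0.83 ± 0.64 on the log2 scale (95% interval -0.50 to 2.16; edgeR adjusted p = 0.517). It was 0.65 ± 0.68 for miR-145a-3p and 0.27 ± 0.61 for miR-145a-5p, and -0.33 ± 0.34 for miR-126a-3p and -0.33 ± 0.30 for miR-126a-5p, with edgeR adjusted p from 0.570 to 0.829. The smooth muscle miRNAs thus had positive and the endothelial strands negative estimates, and every 95% interval included 0. None of the 5 had an unadjusted p under 0.05, and DESeq2 called none of them.

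By mean level miR-143-3p ran from young dwarf (4135 CPM) through old dwarf (3412 CPM) and young normal (2898 CPM) to old normal serum (1343 CPM), and no neighbours in that order that share an age or a genotype differed past the test. For miR-126a-5p the order was young dwarf (2417 ± 319 CPM), old dwarf (2195 ± 504 CPM), old normal (1958 ± 486 CPM) and young normal (1716 ± 395 CPM; SD, n = 5 each), with overlapping ranges at each step. miR-145a-5p averaged 32.8 ± 13.3 CPM in old dwarf, 22.5 ± 3.04 CPM in old normal, 45.9 ± 17.4 CPM in young dwarf libraries, and 38.1 ± 27.1 CPM in young normal libraries. miR-145a-3p averaged 22.8 ± 7.70, 11.9 ± 7.05, 22.7 ± 8.20 and 18.8 ± 11.8 CPM in old dwarf, old normal, young dwarf and young normal libraries. In all 3 smooth muscle miRNAs the old normal group had the lowest mean.

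The spread within groups is described without a test. Pooled over the groups, the SD of log2 CPM within groups was 0.36 for miR-126a-3p and 0.32 for miR-126a-5p, and 16.1% and 10.8% of the tested miRNAs had a smaller one. For miR-143-3p it was 0.80, for miR-145a-5p 0.73 and for miR-145a-3p 0.85, above the median of 0.63 over all tested miRNAs. Single groups did not all follow this order. In old normal libraries miR-145a-5p had a coefficient of variation of 13.5%, below the 26.7% of miR-126a-3p and the 24.8% of miR-126a-5p, and in old dwarf libraries miR-126a-3p (32.7%) was close to miR-145a-3p (33.7%). Over the 20 libraries miR-126a-5p varied 2.31-fold between its lowest and highest library and miR-126a-3p 2.52-fold, whereas miR-143-3p varied 11.7-fold. Counting error is largest for the miR-145a strands, which had 5 to 203 reads per library.

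A ratio of counts within a library is free of library scaling. For 100 reads of miR-143-3p, old dwarf libraries held 7.70, 9.34, 15.98, 5.77 and 4.07 reads of miR-126a-3p, and old normal libraries held 63.8, 20.4, 19.6, 11.03 and 11.5. Old normal replicate 1 stood far above the others, and the old dwarf library had the higher ratio in 2 of 25 pairs. On the log2 scale the ratio averaged -3.70 ± 0.74 in old dwarf and -2.32 ± 1.02 in old normal libraries (SD, n = 5 each), a difference of -1.38 (2-sided exact permutation p = 0.0317, adjusted over 12 ratio tests 0.190; the smallest p possible is 0.00794). Leaving out 1 library at a time gave differences from -1.64 to -0.96. In old normal versus young normal mice the difference was 1.01 (exact p = 0.0873, adjusted 0.210), in young dwarf versus young normal mice -0.28 (exact p = 0.413, adjusted 0.550) and in old dwarf versus young dwarf mice -0.09 (exact p = 0.802). None of the 12 ratio tests passed after adjustment.

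Within the smooth muscle pair, miR-145a-5p over miR-143-3p was lower in old dwarf than in old normal libraries without passing adjustment. Old dwarf libraries held 0.739 to 1.54 reads of miR-145a-5p per 100 of miR-143-3p, with a median of 0.950, and old normal libraries 1.05 to 4.61 with a median of 2.24. The log2 difference was -0.998 (exact p = 0.0476, adjusted 0.190). Old normal replicates 1, 2 and 3, which had the least miR-143-3p, had the highest ratios of all 20 libraries. miR-143-3p is the denominator of this ratio and of the one before, so neither is independent of its level. The other groups lay close together, at 1.003 to 1.29 reads per 100 in young dwarf and 0.927 to 1.72 in young normal libraries.

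The strand ratio of miR-126a was higher in old than in young mice of each genotype, again without passing adjustment. Reads of miR-126a-5p per read of miR-126a-3p numbered 6.55, 10.5, 8.34, 10.4 and 10.4 in old dwarf libraries and 7.07, 9.98, 8.92, 6.91 and 9.08 in old normal libraries. They numbered 6.61 to 7.77 in young dwarf and 6.31 to 7.31 in young normal libraries. Of the old libraries of each genotype, 3 or more had over 8 reads, and no young library did. The log2 difference was 0.28 in old normal versus young normal mice (exact p = 0.0476, adjusted 0.190; higher in 22 of 25 pairs) and 0.32 in old dwarf versus young dwarf mice (exact p = 0.0794, adjusted 0.210; higher in 20 of 25 pairs). Between genotypes it was 0.13 in old mice (exact p = 0.468) and 0.09 in young mice (exact p = 0.119).

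**Figure D3:**
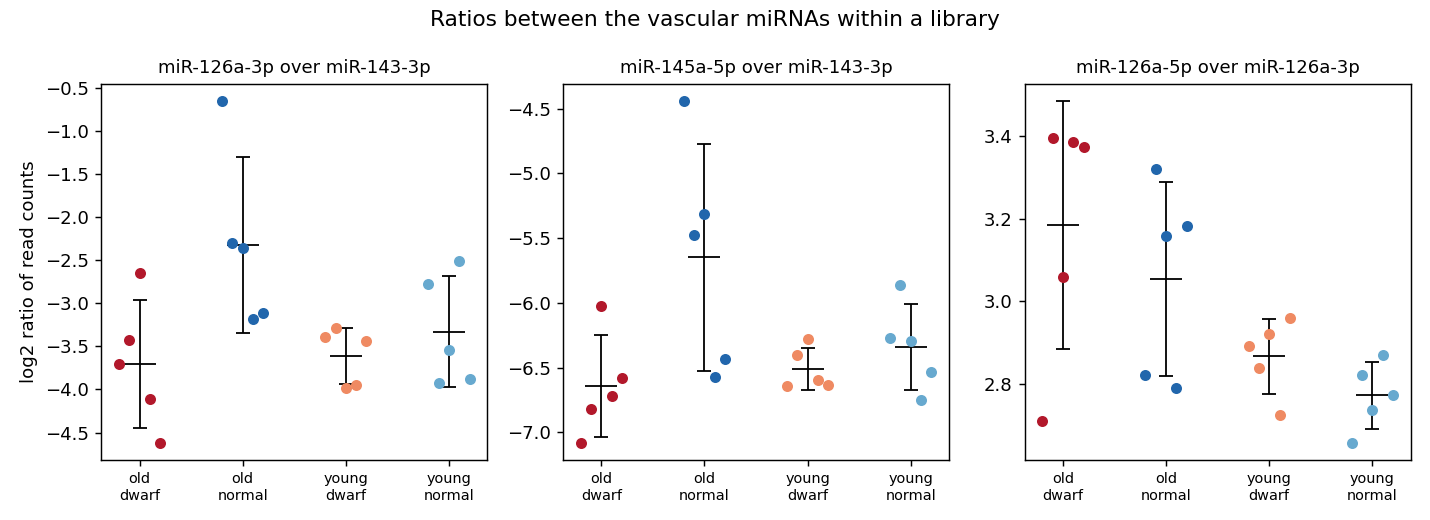
Log2 ratios of read counts within a library for miR-126a-3p over miR-143-3p, miR-145a-5p over miR-143-3p and miR-126a-5p over miR-126a-3p, with a point per library and bars for mean ± SD (n = 5). Old normal libraries reach the highest values of the first and second ratio, and both old groups spread above the young groups in the third.

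Levels of strands from a shared hairpin or cluster correlated over the libraries. Of the 10 pairs among the 5 miRNAs, 8 had an adjusted permutation p under 0.05, and 6 did after each group was centred on its mean. The share of such pairs among all tested miRNAs was not determined. High correlation was not particular to a shared locus, as miR-143-3p had r = 0.956 with miR-199a-5p and miR-145a-5p had r = 0.849 with miR-214-5p. Among the 10 pairs, miR-143-3p with miR-145a-3p had the highest correlation of log2 CPM over 20 libraries. Pearson's r was 0.912 (permutation p = 1e-05, the smallest these permutations can give, adjusted 0.0001) and Spearman's rho was 0.895 (adjusted permutation p = 5e-05). After centring r was still 0.912 (adjusted permutation p = 0.0002), and without the 2 libraries farthest from the median it was 0.907. miR-143-3p with miR-145a-5p had r = 0.795 (adjusted permutation p = 0.0002), rho = 0.886 (adjusted p = 5e-05), a centred r of 0.777 and 0.888 without the 2 farthest libraries. The strands of miR-126a had r = 0.789 (adjusted permutation p = 0.000367), rho = 0.734 (adjusted p = 0.001), a centred r of 0.836 and 0.747 without the 2 farthest libraries. The strands of miR-145a had r = 0.721 (adjusted permutation p = 0.00075), rho = 0.824 (adjusted p = 0.0001), a centred r of 0.687 and 0.679 without the 2 farthest libraries.

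Pairs of an endothelial and a smooth muscle miRNA had r from 0.344 to 0.651, where pairs within a layer had 0.721 to 0.912. This difference was not tested. Every pair within a layer also shares a hairpin or cluster, so layer and shared locus cannot be told apart. After centring, the ranges were 0.258 to 0.647 between layers and 0.687 to 0.912 within them. miR-126a-3p with miR-143-3p had r = 0.508 (permutation p = 0.0230, adjusted 0.0316) and rho = 0.520 (adjusted permutation p = 0.0294). Centring the groups left r = 0.407 (adjusted permutation p = 0.164), and leaving out the 2 farthest libraries left 0.389, so this relation rests in part on those libraries and on the group means. Between miR-126a-3p and miR-145a-5p r was 0.651 (adjusted permutation p = 0.00372), rho was 0.612 (adjusted p = 0.0102) and the centred r was 0.566 (adjusted p = 0.0198), with 0.559 without the 2 farthest libraries. miR-126a-5p with miR-145a-5p had r = 0.643 (adjusted permutation p = 0.00388), rho = 0.526 (adjusted p = 0.0294), a centred r of 0.647 (adjusted p = 0.00682) and 0.587 without the 2 farthest libraries.

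Outside the group, the tested miRNAs most like miR-143-3p over the 20 libraries were miR-199a-5p (r = 0.956) and miR-199a-3p with miR-199b-3p (r = 0.938). miR-199a comes in part from Dnm3os, a noncoding transcript of mesenchymal cells. Their mature sequences are printed to show why the 3p names cannot be told apart, with the seed in capitals.
miR-199a-3p: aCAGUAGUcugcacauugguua
miR-199b-3p: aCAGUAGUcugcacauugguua
miR-199a-5p: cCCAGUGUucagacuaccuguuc
The sequences are from RefSeq (GRCm38.p6), at chr1:162217883-162217904 for miR-199a-3p and chr1:162217844-162217866 for miR-199a-5p in Mir199a-2, and chr2:32318524-32318545 for miR-199b-3p in Mir199b, all on the plus strand. The 3p strands are letter for letter the same, and the table gave both names the same count in every library. miR-145a-5p was most like miR-214-5p (r = 0.849), miR-378a-5p (r = 0.845) and miR-485-3p (r = 0.844). miR-126a-3p had no close match, with miR-148a-3p (r = 0.613), miR-429-3p (r = 0.610) and miR-335-5p (r = 0.601) nearest. These correlations were taken over n = 20 libraries that share depth and scaling, and are descriptions.

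**Figure D4:**
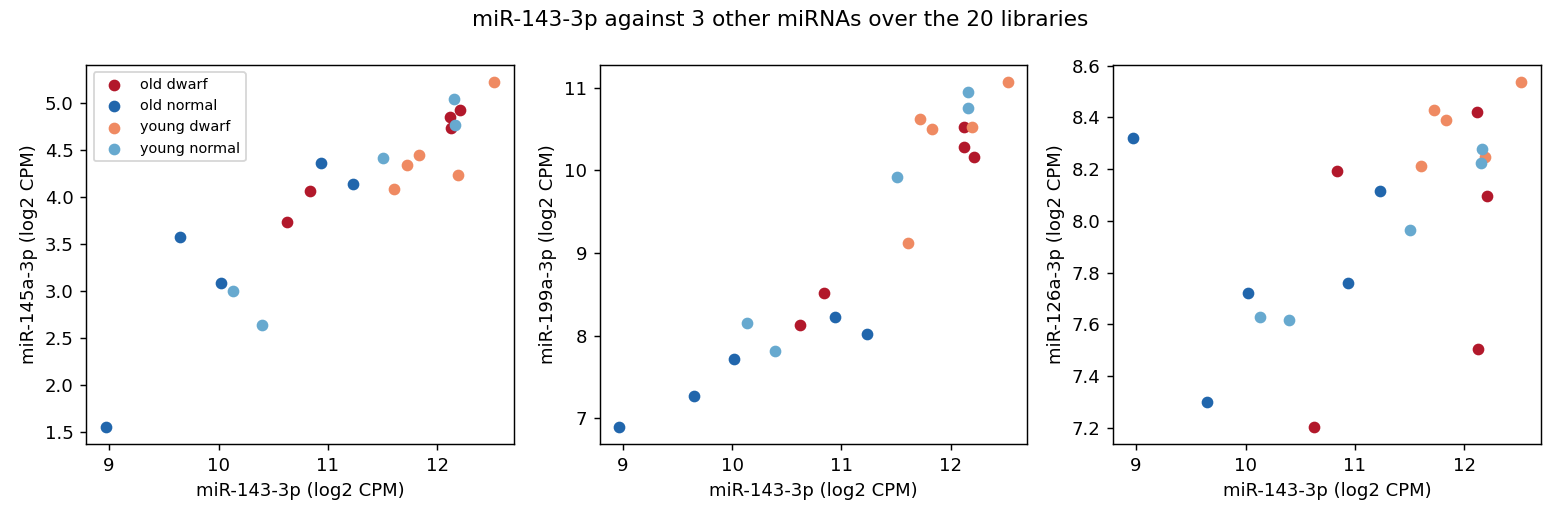
Level of miR-143-3p (horizontal axes, log2 CPM) against miR-145a-3p, miR-199a-3p and miR-126a-3p (vertical axes, log2 CPM) in the 20 libraries, coloured by group. Points follow a line for miR-145a-3p (r = 0.912) and miR-199a-3p (r = 0.938) and scatter for miR-126a-3p (r = 0.508).

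Other miRNAs tied to smooth muscle and mesenchymal cells were taken from a list of 8 names, of which 6 were tested. miR-199a-3p and miR-199b-3p are the same reads and count once here, which leaves 5. In old dwarf versus old normal serum 2 of 5 rose and 0 fell, beside 16.1% of all miRNAs higher. The median log2 fold change was 0.95 against -0.06 over all tested miRNAs, or 1.53 with both 3p names counted. The 2 were the strands of miR-199a, which share a hairpin, so they do not count as separate loci. miR-199a-3p averaged 901 ± 542 CPM in old dwarf libraries, and 208 ± 73.9 CPM in old normal libraries, a log2 fold change of 2.11 ± 0.57 (edgeR adjusted p = 0.0121). miR-199a-5p averaged 25.4 ± 16.1 CPM in old dwarf libraries, and 5.11 ± 3.42 CPM in old normal libraries, 2.31 ± 0.64 on the log2 scale (edgeR adjusted p = 0.0133). Both calls held in each of 20 fits without 1 library (highest adjusted p = 0.0413). With the haemolysis index as covariate both calls ended, at 1.78 ± 0.82 and 2.16 ± 0.92 (edgeR adjusted p = 0.251 and 0.213). That fit called 0 of 360 miRNAs in this comparison.

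In old normal versus young normal serum the same 2 were lower and 0 higher of 5, beside 10.6% of all miRNAs lower, with a median of -1.22 against -0.0042 over all tested miRNAs (-1.73 with both names counted). miR-199a-3p averaged 208 ± 73.9 CPM in old normal libraries, and 1034 ± 802 CPM in young normal libraries (-2.31 ± 0.58, edgeR adjusted p = 0.0125), again with the old normal libraries in common. miR-199a-5p was at -2.23 ± 0.64 (edgeR adjusted p = 0.0214). That call ended without old normal replicate 1 or 3 or young normal replicate 2 or 5, with adjusted p up to 0.0740. With the haemolysis index as covariate neither call of age held, at -1.99 ± 0.81 and -2.09 ± 0.89 (edgeR adjusted p = 0.255 and 0.263). That fit called 1 of 360 miRNAs in this comparison. miR-214-3p, which comes from the same Dnm3os transcript, was at 0.95 ± 0.49 in old dwarf versus old normal mice and -1.22 ± 0.48 in old normal versus young normal mice (edgeR adjusted p = 0.134 and 0.0760). miR-21a-5p and miR-22-3p, which many cell types express, had log2 fold changes of -0.33 and -0.0028 in old dwarf versus old normal mice.

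Among endothelial-associated miRNAs the one call was downward. Of 8 names 5 were tested, miR-503-5p was too low and both miR-126b strands had no reads. In old dwarf versus old normal serum 1 of 5 fell and 0 rose, beside 10.3% of all miRNAs lower, with a median of -0.53. The one was miR-222-3p, which restrains Kit in endothelial cells, at 265 ± 153 CPM in old dwarf libraries, and 659 ± 221 CPM in old normal libraries (log2 fold change -1.31 ± 0.47, edgeR adjusted p = 0.0444). Its call held in 8 of 20 fits without 1 library, those without old dwarf replicate 2 or 3, old normal replicate 1, young dwarf replicate 1 or young normal replicate 1, 2, 4 or 5, and the adjusted p reached 0.152 in the others. With the haemolysis index as covariate it was at -0.54 (adjusted p = 0.605). miR-221-3p, which is transcribed together with miR-222-3p, was at -0.16 ± 0.16 (edgeR adjusted p = 0.466). miR-296-5p was at -1.003 ± 0.41 and the hypoxia-responsive miR-210-3p at -0.50 ± 0.23 (edgeR adjusted p = 0.0677 and 0.0994). In old normal versus young normal serum edgeR called 0 of 5 (median 0.0046), beside 15.6% of all miRNAs, with 1 at an unadjusted p under 0.05. DESeq2 called miR-296-5p there, beside 117 of all 360 miRNAs. In young dwarf versus young normal serum edgeR and DESeq2 called 0 of 5 (median -0.40), beside 0 and 6 of 360 miRNAs, with 1 at an unadjusted p under 0.05. miR-222-3p is also expressed in blood cells.

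Lists of blood cell and other tissue miRNAs are given for comparison, and their part in the vascular results was not tested. Platelet and myeloid miRNAs, which matter because platelets carry miR-126, summed to 20118 to 57628 CPM in old dwarf libraries, and 53513 to 75094 CPM in old normal libraries. Most of that sum was miR-191-5p (means of 18688 and 40193 CPM) and miR-142a-5p (14558 and 21941 CPM), in the same order of groups. Of 6 tested, 0 rose and 2 fell in old dwarf versus old normal serum (median -0.68), beside 16.1% of all miRNAs higher and 10.3% lower. The 2 were miR-191-5p at -1.10 ± 0.37 and miR-223-5p at -1.08 ± 0.39 (edgeR adjusted p = 0.0337 and 0.0459). The call of miR-191-5p held in 11 of 20 fits and ended without old dwarf replicate 1, 4 or 5, old normal replicate 1, 2, 4 or 5 or young dwarf replicate 2 or 3 (adjusted p up to 0.137), and it ended with the haemolysis index as covariate (-0.55, adjusted p = 0.465). That of miR-223-5p held in 5 of 20 fits, those without old dwarf replicate 2, old normal replicate 1, young dwarf replicate 1 or young normal replicate 1 or 2 (adjusted p up to 0.155 in the others), and it ended on library totals, with no filter, with only these groups fitted and with the index as covariate (-0.39, adjusted p = 0.649). miR-223-3p, the main strand in platelets and neutrophils, averaged 338 ± 188 CPM in old dwarf libraries, and 574.5 ± 165 CPM in old normal libraries (edgeR adjusted p = 0.0818). In old normal versus young normal serum 1 of 6 rose (median 0.43), beside 5% of all miRNAs higher, namely miR-191-5p at 1.10 ± 0.37 (edgeR adjusted p = 0.0465). That call held in 6 of 20 fits, those without old dwarf replicate 1, 2 or 3, young dwarf replicate 1 or young normal replicate 1 or 4 (adjusted p up to 0.133 in the others), and it ended with a replicate block, with only these groups fitted and with the index as covariate (0.48, adjusted p = 0.589).

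Red cell miRNAs summed to a median of 355946 CPM in old dwarf libraries, and 439284 CPM in old normal libraries, most of it miR-486a-5p. Of 5 such miRNAs edgeR called 0 in old dwarf versus old normal serum (median 0.57), beside 26.4% of all miRNAs, while 4 had an unadjusted p under 0.05 and DESeq2 called 4, with miR-451a at 0.73 ± 0.28 (edgeR adjusted p = 0.0550). In old normal versus young normal serum 1 of 5 fell (median -0.69), beside 10.6% of all miRNAs lower, namely miR-451a at -0.99 ± 0.28 (edgeR adjusted p = 0.0198), a call that ended without young normal replicate 3 (adjusted p = 0.0747) and with the index, which holds miR-451a, as covariate (-0.09). miR-486a-5p was at 0.59 ± 0.30 there (edgeR adjusted p = 0.147). Striated muscle miRNAs, summing to 1987 to 5596 CPM in old dwarf libraries, and 317 to 4013 CPM in old normal libraries, had 0 of 4 called by edgeR in either comparison, beside 26.4% and 15.6% of all miRNAs, with medians of 1.53 and -1.49. Each comparison had 2 of them at an unadjusted p under 0.05, and DESeq2 called 1 in old dwarf versus old normal and 2 in old normal versus young normal mice. miR-133a-3p, which made up nearly all of that sum, was at 1.24 ± 0.63 in old dwarf versus old normal mice (edgeR adjusted p = 0.133), and miR-206-3p, a defining marker of skeletal muscle, had 3 reads in all libraries. Hepatocyte miRNAs had 0 of 4 called by edgeR in either comparison, beside the same shares of all miRNAs, with medians of 1.35 and 0.46. In old dwarf versus old normal mice 3 had an unadjusted p under 0.05 and DESeq2 called 3, and in old normal versus young normal mice the numbers were 1 and 0. In young dwarf versus young normal serum, in old dwarf versus young dwarf serum and in the difference of the age effects, edgeR called no member of the 6 lists. The shares of all miRNAs were 0%, 0.556% and 0.556%, in that order. DESeq2 called 2 hepatocyte miRNAs in young dwarf versus young normal serum, beside 6 of all 360 miRNAs. It called 2 red cell miRNAs in the difference of the age effects, beside 20 of 360. For the DESeq2 counts given above, its calls over all miRNAs were 136 of 360 in old dwarf versus old normal and 117 of 360 in old normal versus young normal mice.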

How the data were processed

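Per the file headers, the deposited table (miRDeep2 quantifier layout) holds whole-number read counts per mature miRNA and precursor for each sample, and RPM values that the authors made from them. Bowtie 0.12.8, bedtools, edgeR and the builds GRCm38 and mm10 appear in the submitters' processing notes with no role given. RPM was not used. A second deposited file, the authors' miRDeep2 report on all samples together, gave hairpin read counts and the miR-126a-5p sequence; its other columns hold a score and probabilities that were not used. No sample column was left unused (0 columns).

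Of several precursor rows of a name (115 of 1915 names), the row with the highest total was used. The edgeR 4.0.16 quasi-likelihood test (R 4.3.3, limma 3.58.1) was run on these counts, with TMM scaling, the default filter by group (minimum count 10; at least 99.9% of reads kept) and 1 mean per group over all 20 libraries. Benjamini-Hochberg adjustment ran over 360 miRNAs within each of 5 comparisons, and an adjusted p under 0.05 is called. The common biological coefficient of variation was 47.5%. The fit was checked on simulated counts. A standard error is the log2 fold change divided by the root of its F statistic. DESeq2 1.42.0 was an alternative.

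Ratios used counts plus 1 and 2-sided exact permutation tests, adjusted over 12 tests. Correlations used log2 CPM (prior count 1) and 100000 permutations (scipy 1.17.1), adjusted over 10 pairs. Positions are from GENCODE M21. Read totals of 1343137 to 4710263 set the counting precision, and amplified reads are not independent molecules.

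All 5 vascular miRNAs are named throughout, with up to 3 members by smallest p of the 6 lists (endothelial-associated, smooth muscle and mesenchymal, platelet and myeloid, red cell, hepatocyte, striated muscle), further members where a sentence turns on them, and the 3 tested miRNAs most correlated with miR-126a-3p, miR-143-3p and miR-145a-5p. Members, lists, tests and alternatives were chosen with earlier results of these data known. Alternatives were other scalings, no filter, DESeq2, summed precursor rows, identical names counted once, the haemolysis index as covariate, a replicate block, only the groups compared, and leaving out each library.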

Additional observations from a re-analysis of the deposited data

Results flagged for a closer look

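Among 32 groups of 5 libraries checked for a library far from the others, 1 was flagged: miR-145a-3p stood at 37.0 CPM in young dwarf replicate 3, with the gap to the next library making up 0.763 of the range of the group, above the critical value of 0.71. Chance flags about 1 in 20 such groups. That library also had the highest miR-143-3p (5866 CPM) of all 20 and the highest miR-145a-5p (75.03 CPM) of its group.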

How the results depend on the processing

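The rise of miR-143-3p in old dwarf versus old normal mice stayed past the threshold under 9 of 10 processing alternatives and in 13 of 20 fits without 1 library (log2 1.14 to 1.67). With the haemolysis index as covariate it was 0.91, and 0 in place of 1 vascular miRNA was called; without 1 library that number ran from 0 to 1. Its lower level in old normal versus young normal mice, which missed the threshold, passed it with library totals (-1.70), no filter (-1.23) and DESeq2 (-1.24), so that 1 in place of 0 was called. It still missed the threshold with the haemolysis index as covariate. Without 1 library it ran from -1.42 to -0.89 (0 to 1 called). The cause was not tested.

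Reversals touched estimates near 0. For miR-126a-3p the covariate gave -0.11 in old dwarf versus old normal mice and 0.095 in old normal versus young normal mice, where upper-quartile scaling gave 0.036; without 1 library these ran from -0.078 to 0.21 and from -0.22 to 0.029. miR-126a-5p in old normal versus young normal mice was -0.34 on library totals and -0.074 with only these groups fitted. miR-145a-3p in old dwarf versus young dwarf mice was -0.37 on library totals, -0.077 with no filter and -0.0059 with the covariate, and -0.12 to 0.24 without 1 library. The difference of age effects of miR-145a-5p was -0.070 with the covariate and -0.16 to 0.51 without 1 library, and the log2 ratio of miR-126a-3p to miR-143-3p in old dwarf versus young dwarf mice ran from -0.35 to 0.14. The other 232 of 245 fold changes under processing alternatives and all 36 ratios kept sign and side of the threshold.

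Counts over all miRNAs moved more. For old dwarf versus old normal mice 95 were called, 0 with the covariate, 63 with only these groups fitted and 51 to 143 without 1 library. For old normal versus young normal mice it was 56, against 117 by DESeq2, 106 on library totals, 34 with only these groups, 1 with the covariate and 29 to 123 without 1 library. Young dwarf against young normal mice gave 0, against 6 by DESeq2 and 1 with the covariate or no filter. The difference of age effects gave 2, against 20 by DESeq2, 13 with no filter, 1 with DESeq2 size factors and 0 to 3 in the remaining fits, and old dwarf versus young dwarf mice 2, against 0 to 2. Library totals moved the median of all miRNAs to 0.23, -0.42, -0.38 and 0.18 in old dwarf versus old normal, old normal versus young normal, old dwarf versus young dwarf and young dwarf versus young normal mice, and left 9 higher and 97 lower in old normal versus young normal mice, where TMM gave 18 and 38 and upper-quartile scaling 33 and 36.

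For each tested miRNA, the deviation of a library from its group mean of log2 CPM was taken. Correlations of these deviations between same-numbered libraries of different groups ran from -0.663 to 0.793. Between young dwarf and young normal libraries they were 0.793, 0.260, 0.537, -0.221 and 0.326, where other numbers averaged -0.067. Between old dwarf and young normal libraries they were -0.604, -0.624, -0.437, -0.582 and 0.647, where other numbers averaged 0.091. Whether replicate numbers pair libraries was not tested. With a replicate block miR-143-3p was 1.49 in old dwarf versus old normal mice (adjusted p = 0.0348), no vascular call changed, and of all miRNAs 92 were called in old dwarf versus old normal and 38 in old normal versus young normal mice. Paired sign-flip tests of ratios cannot go below an exact p of 0.0625. Depth limits the miR-145a strands most.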
